A study of Mus musculus with 4 samples.

Results

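The genes described here encode the subunits of 4 machines of the inner mitochondrial membrane, respiratory complexes I, II and III and the ATP synthase (complex V), together with cytochrome c and the Ndufaf assembly factors of complex I. They were chosen by symbol (Nduf followed by a, b, c, s or v, Sdha to Sdhd, Uqcr, Atp5, Cyc1 and Cycs). This gave 75 genes among the 18193 that had a probe set with a single gene symbol, and each gene was represented by 1 probe set. Of the 75, 73 had a mean signal above the filter used for testing and 2, Ndufb4 and Ndufa4l2, lay below it. The groups held 6 core and 28 accessory subunits of complex I, Ndufa4 with its paralogue Ndufa4l2, 8 Ndufaf factors, 4 subunits of complex II, 9 of complex III, cytochrome c and 17 of complex V.

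The samples were cultures of C2C12, an immortalised mouse myoblast line that forms myotubes when serum is lowered. Both groups carried a stably selected hairpin plasmid, were expanded in medium with 750 µg/mL hygromycin B, and were collected 48 h after the change from 10% fetal bovine serum to 2% horse serum, at 25 mM glucose throughout. The shControl group (2 arrays) carried a non-targeting hairpin and the shLSD1 group (2 arrays) a hairpin against LSD1, the histone demethylase encoded by Kdm1a. Each group carried its own hairpin and went through its own selection, so effects of the knockdown and of the selection cannot be told apart. Whether the arrays within a group stand for separate cultures is not stated, and the spread behind every p-value here may therefore be technical.

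Electrons enter the respiratory chain from NADH at complex I and from succinate at complex II, pass through coenzyme Q to complex III, and are carried by cytochrome c to complex IV, where oxygen is reduced. Complexes I, III and IV pump protons, and the proton gradient drives ATP synthesis by complex V. Differentiating myoblasts enlarge their mitochondrial network, and contracting muscle relies on these complexes for sustained ATP supply.

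The arrays showed the labelled state. Kdm1a signal was 4603 and 4588 in the shControl arrays and 922 and 1034 in the shLSD1 arrays, a fall to 21.3% of control (limma, Benjamini-Hochberg adjusted p = 2.89e-05). All 10 markers of differentiating muscle (Myog, Myod1, Des, Myh3, Acta1, Ckm, Mylpf, Tnnc2, Mb and Actn2) were above the filter. Their summed signal was 172044 to 173823 in shControl and 123682 to 135286 in shLSD1. At a limma adjusted p under 0.05, 8 of the 10 fell, against 7.09% of all genes tested. All 4 adipocyte markers measured (Adipoq, Cidec, Fabp4 and Retn) were below the filter. Of the 4 osteoblast markers measured, Dmp1 and Sp7 were above the filter and Alpl and Ibsp below it.

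Ndufa4 and Ndufb7, both lower in shLSD1, were the 2 respiratory genes whose difference passed the test (2.74% of the 73 tested, against 15.8% of all genes tested). The c-ring genes Atp5g1, Atp5g2 and Atp5g3 are the members that encode the same mature protein from separate genes. The 100 bases before the annotated start of these 5 genes are shown as background on which genes are meant and where they lie (RefSeq, GRCm38.p6, 5′ to 3′ on the gene's strand). Capitals mark a match to the NRF1 consensus in Atp5g2 and to the ERR element, TCAAGGTCA read on the opposite strand, in Atp5g3.
Ndufa4, chr6:11907451-11907550, strand -: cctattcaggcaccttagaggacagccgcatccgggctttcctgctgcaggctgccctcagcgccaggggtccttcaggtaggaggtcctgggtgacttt
Ndufb7, chr8:83566658-83566757, strand +: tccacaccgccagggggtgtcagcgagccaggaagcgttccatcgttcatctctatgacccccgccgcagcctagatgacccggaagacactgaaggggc
Atp5g1, chr11:96075632-96075731, strand -: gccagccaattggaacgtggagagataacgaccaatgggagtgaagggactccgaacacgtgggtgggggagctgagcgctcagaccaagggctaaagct
Atp5g2, chr15:102671048-102671147, strand -: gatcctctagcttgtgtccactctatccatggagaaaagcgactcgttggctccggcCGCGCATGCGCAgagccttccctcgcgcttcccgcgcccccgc
Atp5g3, chr2:73911327-73911426, strand -: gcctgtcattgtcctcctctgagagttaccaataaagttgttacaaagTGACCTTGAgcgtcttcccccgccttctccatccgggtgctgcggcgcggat

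RefSeq promoter windows of 300 bases, from 250 before to 50 after a start, were found for 63 of the 75 members. They were searched on both strands for 5 motifs of factors known to act on nuclear genes of mitochondria. The YY1 motif AAGATGGCG was present for 7 members (11.1%), against 3.83% of the 8818 tested genes that had a window. The 7 were Ndufs7, Ndufa9, Ndufc1, Ndufs4, Ndufaf8, Atp5j and Atp5j2. The NRF1 consensus was present for 6 (9.52% against 3.45%), namely Sdhd, Uqcrc1, Atp5c1, Atp5g2, Ndufa6 and Ndufb4. The ERR element TCAAGGTCA was present for Sdhd and Atp5g3 (3.17% against 0.34%). The cyclic AMP response element TGACGTCA was present for 4 (6.35% against 3.65%), namely Cycs, Uqcrfs1, Ndufa10 and Ndufb2. The ETS motif CCGGAAGT was present for 4 (6.35% against 9.62%), namely Ndufs3, Uqcr11, Uqcrh and Atp5h. None of the 5 was found in the windows of Ndufa4 and Ndufb7. No factor's binding was measured here, so these matches are descriptions of the letters only.

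As a group the respiratory genes differed little between shLSD1 and shControl. Of the 73 tested, 0 rose and 2 fell at a limma adjusted p under 0.05. Over all 10879 genes tested, 8.75% rose and 7.09% fell, or 15.8% in either direction. At an unadjusted limma p under 0.05 there were 14 respiratory genes (19.2%), against 31% of all genes tested. Of these, 5 were higher (6.85%, against 16.6%) and 9 lower (12.3%, against 14.3%). Log2 fold changes of the 73 ran from -0.28 (Ndufa4) to 0.16 (Ndufs7). Their middle 50% lay between -0.087 and 0.031, against -0.13 and 0.17 over all genes tested.

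Only Ndufa4 differed by more than 0.25 on the log2 scale, which is 1.37% of the 73, against 30.3% of all genes tested. The respiratory genes also have bright probe sets, on which smaller differences can be resolved: their median standard error was 0.048, against 0.097 over all genes tested. Among the 912 genes with a mean signal of at least 4706, the lowest quartile of the respiratory genes, 24.9% were called and 16.3% differed by more than 0.25. The 55 respiratory genes in that range include both calls (3.64%) and 1 difference over 0.25 (1.82%). For 72 of the 73 the whole 95% interval of the log2 fold change lay between -0.5 and 0.5. The exception was Ndufb1, a dim probe set with an interval from -0.56 to 0.21.

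**Figure D1:**
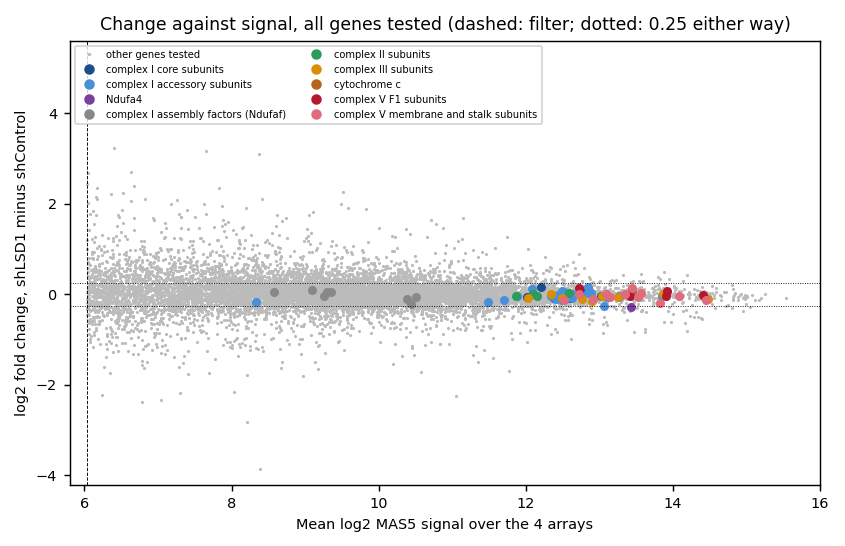
Log2 fold change (shLSD1 minus shControl, 2 arrays each) against the mean log2 signal of each gene, with respiratory genes coloured by complex and the other genes tested in grey. Apart from Ndufa4 at -0.28, the coloured points lie between the dotted lines at 0.25 either way, while 30.3% of all genes tested lie outside them.

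The small differences leaned downward. The median of the 73 was -0.036, with 47 negative and 26 positive, and the median over all genes tested was 0.0036. On the signals themselves, both shLSD1 arrays were below both shControl arrays for 30 genes (41.1%) and above both for 13 (17.8%). Over all genes tested these shares were 29.4% and 30.7%. In either direction the groups did not overlap for 43 genes (58.9%), against 60.1% of all genes tested. The lean was not equal in the 2 shLSD1 arrays: shLSD1 replicate 1 was the lower of the pair for 50 of the 73 genes. Without shLSD1 replicate 1 the median was -0.015 with 40 negative and 33 positive, and without shLSD1 replicate 2 it was -0.055 with 52 negative and 21 positive. Centring each array on its median moved the median of the 73 to -0.058, with all genes at -0.018. Under quantile normalization it was weaker, at -0.029 (46 negative and 27 positive), with all genes at -0.0037. With probe sets averaged it was -0.026 (42 negative and 31 positive), with all genes at 0.0034. In bulk RNA, fewer cells of a type and less RNA per cell cannot be told apart, which applies to every value here. The summed signal of the muscle markers above was lower in both of the same shLSD1 arrays, though Myod1 overlapped between the groups. The part of these markers in this lean was not tested.

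**Figure D2:**
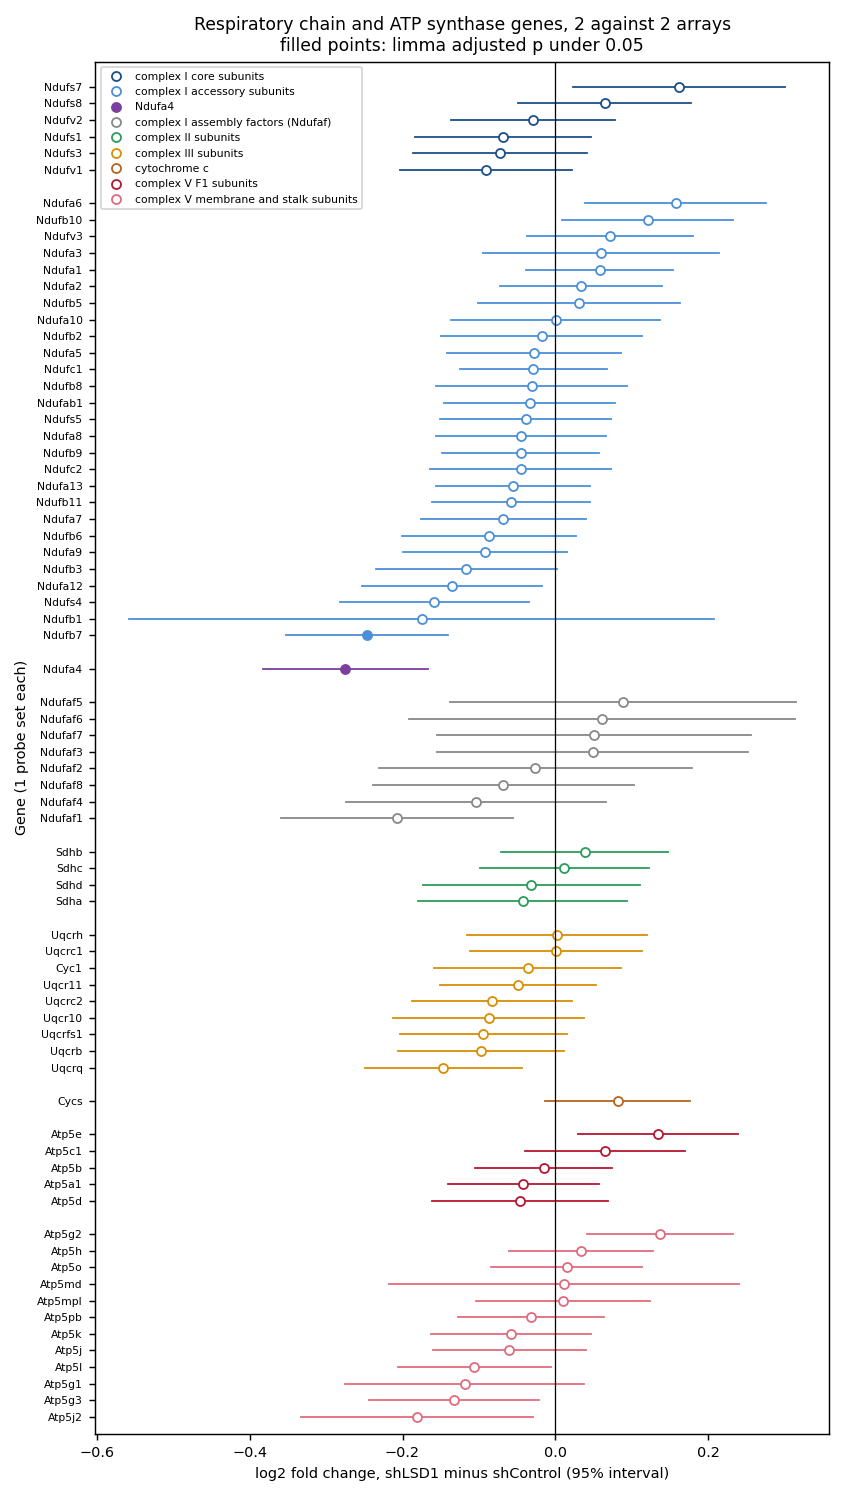
Log2 fold change of each of the 73 tested genes (shLSD1 minus shControl, n = 2 and 2) with its 95% interval from limma, grouped by complex and ordered by value. Filled points passed the threshold, which only Ndufa4 and Ndufb7 did, and the interval of Ndufb1 is the widest.

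Ndufa4 showed the largest difference. Its product was first purified with complex I and is now regarded as a component of complex IV. Its signal (Entrez gene 17992, 1 probe set) was 12333 and 11918 in shControl and 9768 and 10277 in shLSD1. Both shLSD1 arrays were thus below both shControl arrays, and the level was 82.6% of control. The log2 fold change was -0.28 (SE 0.05, 95% interval -0.38 to -0.17, limma adjusted p = 7.59e-03). The paralogue Ndufa4l2, which is induced by hypoxia in other cells, gave signals of 32.7 and 77.8 in shControl and 15.2 and 13.8 in shLSD1, too dim to test.

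Ndufb7, an accessory subunit on the intermembrane-space side of complex I, was the other gene that fell. Its signal (Entrez gene 66916) was 9203 and 9514 in shControl and 8013 and 7764 in shLSD1. The groups did not overlap and the level was 84.3% of control, a log2 fold change of -0.25 (SE 0.05, 95% interval -0.35 to -0.14, limma adjusted p = 0.0104). A second Ndufb7 probe set gave 5810 and 5680 in shControl against 4724 and 4489 in shLSD1, or -0.32. Both calls were lost with 1 shControl array, a fit in which that lone array is assumed to vary like the shLSD1 arrays. Without shControl replicate 1 the log2 fold changes were -0.25 for Ndufa4 and -0.27 for Ndufb7 (limma adjusted p = 0.129 and 0.0987). Without shControl replicate 2 they were -0.30 and -0.22 (0.0833 and 0.150). Without the intensity trend the adjusted p was 0.104 and 0.115.

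Ndufb7 lies on chromosome 8 among genes that were also lower. The 20 tested genes nearest to it in genomic order (10 on each side) had a median log2 fold change of -0.23. Among these, 9 fell and 1 rose (limma adjusted p under 0.05), against 7.09% and 8.75% of all genes tested. Of 10441 genes with 20 such neighbours, 0.709% had a neighbour median this low or lower. The other respiratory genes placed this way had neighbour medians from -0.10 to 0.15, and that of Ndufa4, on chromosome 6, was 0.064. The part of the neighbourhood in the difference of Ndufb7 was not tested.

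The 7 core subunits that the nucleus encodes carry the flavin and the iron-sulfur clusters of complex I, and 6 of them were among the members. None of the 6 passed the test, and their log2 fold changes ran from -0.09 to 0.16. Ndufs7, which holds the last iron-sulfur cluster before coenzyme Q, gave 4396 and 4503 in shControl and 4740 and 5227 in shLSD1, the highest value of all members at 0.16 (95% interval 0.02 to 0.30, limma adjusted p = 0.111). Both shLSD1 arrays were above both shControl arrays, while its second probe set gave 0.05. Ndufv1, which binds the flavin and NADH, measured -0.09 (limma adjusted p = 0.25), while its other probe sets gave 0.07 and -0.00036. Ndufs1, the largest subunit, measured -0.07, as did Ndufs3. The Ndufs8 probe set used gave 0.06, but its 5 other probe sets above the filter ranged from -0.16 to 0.68. The 0.68 came from a dim probe set (98.4 and 96.4 in shControl, 170 and 144 in shLSD1). The other 4 of these 5 were negative, from -0.16 to -0.04. The brightest of all Ndufs8 probe sets, of a type prone to cross-hybridisation, gave -0.16. It passed the threshold narrowly when each gene took its brightest probe set (limma adjusted p = 0.0493). It did not pass when all probe sets were fitted together (limma adjusted p = 0.0571). The probe set used and these 4 differed in sign, so no direction can be given for Ndufs8.

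Accessory subunits surround that core and stabilise it. Of 27 tested, 1 fell (Ndufb7) and 0 rose, 19 were negative and 8 positive, and the median was -0.039. The highest was Ndufa6, a small protein that docks the acyl carrier subunit onto the complex. It gave 7219 and 6776 in shControl and 7934 and 7668 in shLSD1, a difference of 0.16 (95% interval 0.04 to 0.28, limma adjusted p = 0.0762). Ndufb10 measured 0.12 (limma adjusted p = 0.133). The acyl carrier subunit itself, Ndufab1, measured -0.03, and its 4 other probe sets above the filter ranged from -0.24 to 0.23. Both ends of that range came from dim probe sets, with signals from 83.1 to 116 over the arrays. The lowest after Ndufb7 was Ndufb1 at -0.18, which has a dim probe set. That value rests on its shControl arrays, 401 and 294: it was 0.05 without shControl replicate 1 and -0.40 without shControl replicate 2. Ndufb4 had signals from 30.2 upward on its single-symbol probe set, all under the filter signal of 65.4. A pair of probe sets that match it together with Ndufb4b and Ndufb4c were bright and were not used: the brighter gave 7331 and 7090 in shControl and 7265 and 7241 in shLSD1, which the gene and its copies share.

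The 8 Ndufaf genes encode chaperones and enzymes that build complex I and are not part of the finished complex. None passed the test, 4 were positive and 4 negative, and the median was 0.011. Ndufaf1, which helps to assemble the membrane arm, was the lowest: 1524 and 1472 in shControl and 1287 and 1307 in shLSD1, a difference of -0.21 (95% interval -0.36 to -0.06, limma adjusted p = 0.0712). The groups did not overlap, and its level was 86.6% of control. Ndufaf4 measured -0.10, with 1 shLSD1 array close to the shControl values, and its other probe set gave 0.0026. At the other end were Ndufaf5 at 0.09 and Ndufaf6 at 0.06, both with limma adjusted p over 0.5. Partners of Ndufaf1 in the membrane-arm assembly complex, named here after their values were seen, were not uniform: Timmdc1 measured -0.30 (limma adjusted p = 0.0686), Ecsit -0.28 (0.114), Tmem126b 0.02 and Acad9 0.15.

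Complex II, which is also the succinate dehydrogenase of the citric acid cycle, showed the narrowest range, from -0.04 to 0.04 over its 4 subunits. It also has the fewest subunits of the complexes described here, and a range tends to widen with the number of genes. Sdha, the flavoprotein, gave 4466 and 4804 in shControl and 4364 and 4632 in shLSD1 (-0.04). Sdhb, the iron-sulfur subunit, gave 6151 and 5932 in shControl and 6144 and 6264 in shLSD1 (0.04). Both pairs of groups overlapped. The membrane anchors Sdhc and Sdhd measured 0.01 and -0.03. The 95% intervals of the 4 together span -0.18 to 0.15, so that changes beyond about these bounds were not seen, while smaller ones cannot be told from none. Other probe sets above the filter gave 0.10 for Sdha and 0.12 for Sdhc and Sdhd.

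Complex III passes electrons from coenzyme Q to cytochrome c. None of its 9 genes passed the test, 7 were negative, and the median was -0.083. It was -0.068 under quantile normalization and -0.10 under median centring, and -0.044 without shLSD1 replicate 1, where the complex I core median was -0.047. The lowest was Uqcrq, a small subunit of the membrane part, with 7957 and 8180 in shControl and 7257 and 7320 in shLSD1. Its groups did not overlap, at 90.3% of control (log2 fold change -0.15, 95% interval -0.25 to -0.04, limma adjusted p = 0.0622). Uqcrfs1, the Rieske iron-sulfur protein, gave 7154 and 7162 in shControl and 6867 and 6548 in shLSD1 (-0.09, limma adjusted p = 0.222). Uqcrb measured -0.10 (limma adjusted p = 0.203) and Cyc1, cytochrome c1, -0.04. The other Uqcrb probe set gave -0.01. The core protein gene Uqcrc1 measured 0.00062 and the hinge protein gene Uqcrh 0.0026. Both shLSD1 arrays were below both shControl arrays for 6 of the 9 genes (29.4% over all genes tested) and above both for 0 (30.7%).

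Somatic cytochrome c, Cycs, gave 10818 and 10732 in shControl and 11464 and 11341 in shLSD1. Its groups did not overlap (log2 fold change 0.08, 95% interval -0.01 to 0.18, limma adjusted p = 0.224). Its 2 other probe sets above the filter gave -0.07 each, so the sign depends on the probe set.

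Complex V consists of a catalytic part (F1), a membrane rotor and a stator stalk. No F1 gene passed the test. The catalytic beta subunit Atp5b gave 21615 and 22015 in shControl and 21413 and 21754 in shLSD1, groups that overlapped (-0.02, 95% interval -0.10 to 0.07). Atp5a1 (alpha) measured -0.04, Atp5d (delta) -0.05 and Atp5c1 (gamma) 0.07. For Atp5a1 another bright probe set gave 0.0068 and a dim one 0.31. The highest was Atp5e, the small epsilon subunit, with 6551 and 6389 in shControl and 7036 and 7164 in shLSD1 (0.13, limma adjusted p = 0.0865).

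The c-ring genes differed in sign. Atp5g1, Atp5g2 and Atp5g3 encode precursors with different targeting sequences and the same mature c-ring protein. Atp5g2 gave 10617 and 10626 in shControl and 11570 and 11786 in shLSD1, both above both controls (0.14, 95% interval 0.04 to 0.23, limma adjusted p = 0.0622). Atp5g3 gave 23838 and 23017 in shControl and 20606 and 22148 in shLSD1, both below both controls (-0.13, 95% interval -0.24 to -0.02, limma adjusted p = 0.103). Atp5g1 gave 6416 and 5823 in shControl and 5899 and 5374 in shLSD1, with overlapping groups (-0.12, limma adjusted p = 0.279). None of the 3 passed the test, and the difference between them was not tested. Atp5g2 passed under quantile normalization (limma adjusted p = 0.0206) and Atp5g3 under median centring (limma adjusted p = 0.0336). Atp5g2 also passed without either shLSD1 array, and Atp5g3 without shLSD1 replicate 2. In such fits the lone shLSD1 array is assumed to vary like the shControl arrays. For Atp5g3 the array kept was the lower of the pair, at 20606.

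**Figure D3:**
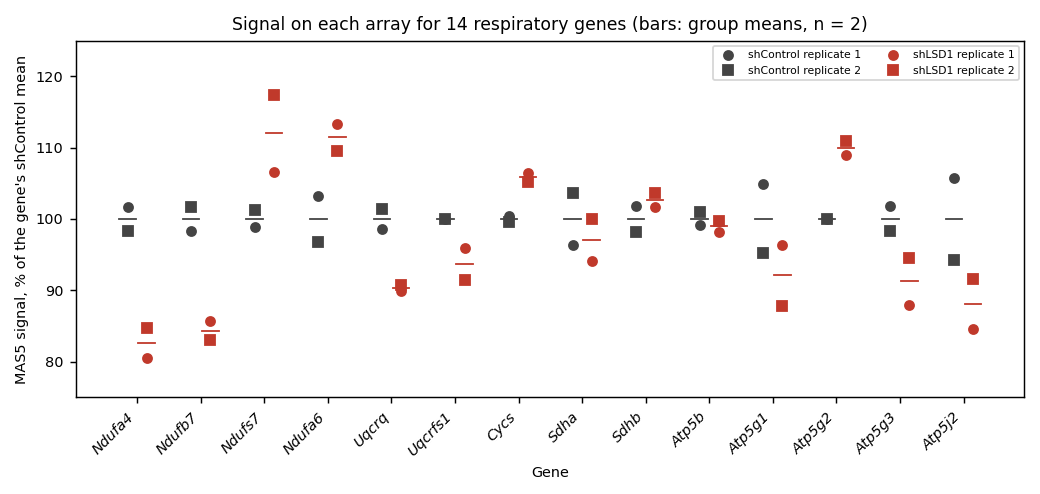
Signal on each array as a percentage of the gene's shControl mean for 14 respiratory genes, with horizontal bars for the group means (n = 2) and separate marks for each replicate. Ndufa4 and Ndufb7 sit at 82.6% and 84.3% of control in the fit, Atp5g2 lies above its control values and Atp5g3 below them, and Sdha and Sdhb overlap.

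Among the other 9 membrane and stalk genes, none passed the test. Atp5j2, subunit f, was the lowest at -0.18 (16311 and 14522 in shControl, 13046 and 14119 in shLSD1, limma adjusted p = 0.104). The groups did not overlap, but the lower shControl array was close to the higher shLSD1 array, and a second bright probe set gave -0.02. Atp5h measured 0.03. Over all 12 genes of this group 7 were negative and 5 positive, with a median of -0.045.

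Other genes of the pathway were read from lists kept alongside the members, with the same background of 8.75% higher and 7.09% lower. Among 14 tested complex IV subunit genes, 2 rose and 2 fell, with a median of -0.041. The muscle isoforms moved in opposite directions: Cox6a2 fell by 1.10 and Cox8b by 0.63, while the dim Cox7a1 rose to 230.1% of control. Dropping shControl replicate 2 or the intensity trend ended the call of Cox8b. Cox7a2l, which links complexes III and IV into supercomplexes, gave 5351 and 5273 in shControl and 6059 and 6394 in shLSD1, a rise of 0.23 (limma adjusted p = 0.0195). Of the shared subunits, named after their values were seen, Cox4i1, Cox5a and Cox6b1 measured 0.01, 0.04 and 0.01. Cox5b, Cox6c, Cox8a, Cox7a2 and Cox6a1 measured -0.13, -0.08, -0.05, -0.03 and -0.01, and the dim Cox7c -0.18. Over the complex IV list 9 were negative and 5 positive. The call of Cox7a2l was lost when either shControl array was left out, without the intensity trend, and when its probe sets were averaged or the brightest was taken.

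Of 20 assembly factors outside the Ndufaf family, 0 rose and 0 fell (limma), 16 were negative, and the median was -0.049. At an unadjusted limma p under 0.05 there were 6 lower (30%) and 0 higher, against 14.3% and 16.6% of all genes tested. Atpif1, the ATP synthase inhibitor kept on the same list, measured 0.15 (limma adjusted p = 0.0732). Of 12 genes for coenzyme Q, the mobile carrier that complexes I and II reduce, 2 fell and 0 rose. Coq9, which presents the precursor to Coq7, gave 1652 and 1636 in shControl and 1333 and 1285 in shLSD1 (-0.33, limma adjusted p = 0.0131). Like Ndufb7 it lies on chromosome 8, and its 20 nearest tested neighbours had a median of -0.22. The neighbour median of Ndufa13, on the same chromosome and named after its values were seen, was 0.023. Coq10b, a coenzyme Q binding protein, gave 3218 and 2888 in shControl and 2512 and 2443 in shLSD1 (-0.30, limma adjusted p = 0.0218). Leaving out either shControl array, dropping the intensity trend or averaging probe sets ended both calls. Of 13 tested regulators of mitochondrial gene expression, 0 rose and 0 fell (limma), and 0 had an unadjusted p under 0.05. Named after their values were seen, Esrra measured 0.19, Ppargc1b 0.16, Gabpa 0.14, Tfam 0.03, Nrf1 -0.10 and Gabpb1 -0.15. Over the list of regulators 8 were negative and 5 positive.

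**Figure D4:**
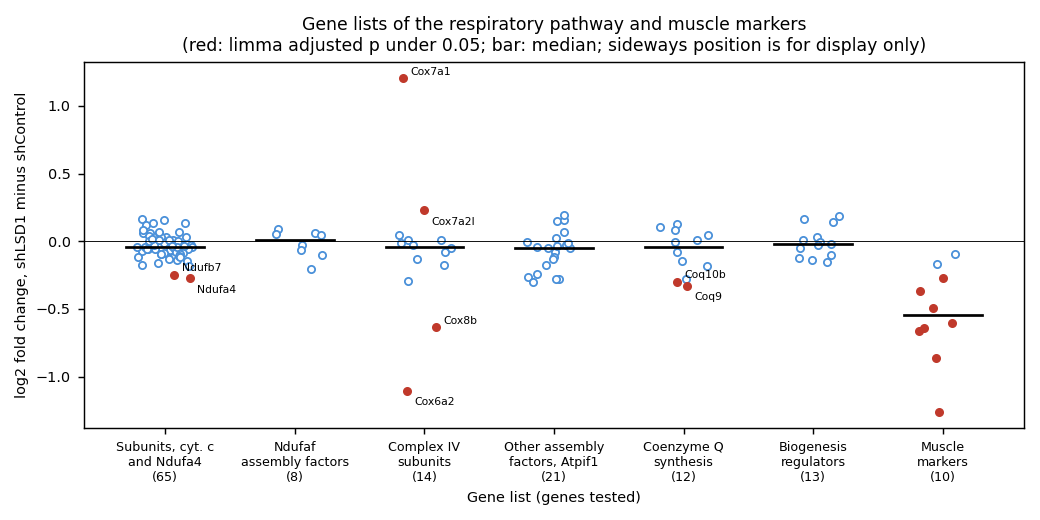
Log2 fold change (shLSD1 minus shControl, n = 2 and 2) of each tested gene in the respiratory lists and in the list of differentiating muscle markers, with the number tested under each list and a bar at the median. Genes past the limma threshold are red (15.8% of all genes tested pass it). They are 2 of the 65 subunit genes (cytochrome c and Ndufa4 included) and 4 of 14 complex IV genes. The rest are 2 of 12 coenzyme Q genes and 8 of 10 muscle markers.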

How the data were processed

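The authors deposited linear signal intensities, 1 for each probe set and array, made with MAS5 and Affymetrix Expression Console per the submitters' processing notes. The sources used here give no version of either. The 4 arrays had median signals of 67.3 to 69.7 and 2% trimmed means of 500.003, so each carries 1 scaling factor. The number of arrays limits the precision. Low MAS5 signals scatter widely once logged.

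Signals under 1 were set to 1 before log2. The annotation table gave 1 symbol for 34945 of 45101 probe sets, several for 932 and none for 9160. Each gene took the brightest probe set, avoiding those ending in _x_at where another existed. Genes with a mean log2 signal above 6.03 (a signal of 65.4, the median of all probe sets other than controls) were tested: 10879 of 18193. Both groups entered 1 linear model in limma 3.58.1 (lmFit, eBayes with an intensity trend) in R 4.3.3. Tests were two-sided, and p-values were adjusted by Benjamini-Hochberg over all genes tested, with a threshold of 0.05. The method was tested on simulated data. Medians of lists are descriptions with no test. Neighbours follow the gene order of GRCm38.p6.

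The members, lists and alternatives were chosen with earlier results of these data known. The genes named are Kdm1a, every member past the threshold, the 2 largest rises and 2 largest falls of each group, a fixed set of catalytic and carrier genes, members below the filter, and pathway genes past the threshold. Genes holding a motif are named with it. Alternatives covered pairing (a replicate block), arrays (each left out in turn), scaling (quantile or median), an offset of 32 added to the signal, the filter (none, or log2 8.91), the variance model (no trend, or robust) and the probe sets (averaged, or the brightest). The range of 912 bright genes was chosen after seeing the data. Figures were drawn with matplotlib 3.10.9.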

Additional observations from a re-analysis of the deposited data

How the results depend on the processing

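Of 73 respiratory genes tested, the counts called lower and higher were 2 and 0. Leaving out 1 array in turn gave 0 to 6 lower and 0 to 3 higher: both were 0 without either shControl array, where calls over all genes fell from 1723 to 595 and 590, and the highest counts came without shLSD1 replicate 2 and without shLSD1 replicate 1. Over the same fits the median ranged from -0.055 to -0.015 for all members, -0.047 to -0.035 for complex I core subunits, -0.020 to 0.021 for Ndufaf factors and -0.087 to -0.044 for complex III, and the calls in the other pathway lists (2 higher and 4 lower) from 1 to 3 and from 1 to 9. Without the intensity trend 637 genes were called in all, 0 members were lower, and the other lists had 1 higher and 1 lower. Quantile normalization gave 1 member higher (Atp5g2), a core median of -0.030 and a membrane and stalk median of -0.020. Median centring gave 4 members lower (Ndufa4, Ndufb7, Atp5g3 and Uqcrq), with medians of -0.058 for all members, -0.070 for core subunits and -0.010 for Ndufaf factors. The stricter filter gave an Ndufaf median of -0.026 and 1 higher call in the other lists. Averaging probe sets called 901 genes in all and gave medians of -0.012 (core), 0.044 (Ndufaf), 0.041 (complex II), 0.082 (F1) and -0.019 (membrane and stalk), with 1 higher and 2 lower in the other lists, and the signs for complex II and F1 turned. These also turned under quantile normalization (0.00011 and 0.014) and without shLSD1 replicate 1 (0.021 and 0.013), and that of complex II without shControl replicate 2 (0.011). The brightest probe set whatever its suffix gave a core median of -0.071, Ndufs8 at -0.16 and 1 higher call in the other lists. Median centring moved the log2 fold changes of all genes down by a common amount. The causes of the other shifts were not tested.

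The replicate numbers did not pair the arrays: the correlation of same-numbered deviations from the group means was 0.0029. With the replicate block the members called were again 2, Ndufa4 and Ndufb7, and the calls over all genes were 2220. Among 43 named genes, 547 single-gene values under an alternative kept their sign and their side of the threshold, 21 lost a call, 12 gained one and 19 changed sign. Of the sign changes, that of Ndufs8 came with a call and the other values were not called in either fit. Leaving out 1 array in turn gave ranges across 0 for Ndufb1 (-0.40 to 0.049), Sdha (-0.096 to 0.0098), Sdhd (-0.097 to 0.035), Cyc1 (-0.095 to 0.022), Atp5d (-0.11 to 0.013), Uqcrc1 (-0.029 to 0.031) and Uqcrh (-0.058 to 0.063). Quantile normalization turned Atp5b (0.014), median centring turned Sdhc, Uqcrc1 and Uqcrh (-0.010, -0.021 and -0.019), and averaging probe sets turned Sdhd, Cycs, Atp5a1 and Atp5h (0.044, -0.12, 0.092 and -6.36e-05). Of the 39 tested members with another probe set above the filter, 23 had no other probe set of opposite sign and 16 had at least 1.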
